A study of Homo sapiens with 6 samples.

Results

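The RNA levels of 9 genes that govern p53 and the commitment to apoptosis were examined in 4 cell lines of atypical teratoid rhabdoid tumor (AT/RT), a malignant brain tumor of early childhood that is defined by loss of SMARCB1, a subunit of the SWI/SNF chromatin remodeling complex. The genes were MDM2, MDM4, BCL2, BCL2L1, MCL1, BAX, BBC3, PMAIP1 and BIRC5, taken by gene symbol out of the 36532 gene identifiers in the files, and all 9 were found with 1 identifier each. The lines, CHLA 02, 04, 05 and 06, were grown without any further treatment in DMEM:F12 with 20 ng/mL EGF, 20 ng/mL basic FGF and 2% B-27, so the lines differ by their tumor of origin and share the medium. The authors cite a published classification of CHLA 02, 04 and 05 as AT/RT group 1 and of CHLA 06 as group 2. Total RNA was sequenced as stranded paired-end reads of 125 bp in 6 libraries. These were 1 of CHLA 02, 1 of CHLA 05, and 2 each of CHLA 04 and CHLA 06 that the labels call technical replicates. Each line was therefore taken as 1 biological sample, though the labels do not say at which step the technical replicates were made. No cells with normal SMARCB1 were included, and no difference between lines could be tested against the spread between cultures.

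p53 is a transcription factor that is switched on by DNA damage and other stress and induces genes for cell cycle arrest, repair and apoptosis. MDM2 is the ubiquitin ligase that marks p53 for degradation and is itself induced by p53, and MDM4 is a related protein that binds p53 and holds back its activity. Downstream, the BCL2 family decides whether the outer membrane of mitochondria is opened: BCL2, BCL2L1 and MCL1 keep it closed, BAX forms the pore, and the BH3-only proteins encoded by BBC3 (PUMA) and PMAIP1 (NOXA) are p53 targets that bind and neutralize the protective members. BIRC5 encodes survivin, a member of the inhibitor of apoptosis (IAP) family that also serves in the chromosomal passenger complex at mitosis.

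Levels are given as TPM, the share of a transcript among all transcripts of a library per unit of length, summed over the transcripts of a gene. Reads were recovered from the TPM values, between 10265899 and 20520229 per library on transcripts, so that 1 read on a transcript of 1 kb was worth 0.117 to 0.236 TPM. For CHLA 04 and CHLA 06 the value of a line is the mean of the technical replicates with their SD (n = 2). For each library, the 95% Poisson interval of the summed reads of a gene was scaled to its TPM. It covers counting error only and weighs all reads alike, although a read on a shorter transcript adds more TPM. In CHLA 02, 124 reads on an MDM2 transcript of 754 bases gave 24.6 TPM, and 4206 reads on 12633 bases gave 49.8 TPM. The intervals are thus too narrow for such genes, and statements that lines were apart or overlapped share this limit. SMARCB1 RNA was at 13.5 to 26.2 TPM in the 6 libraries, a value that does not inform on the protein. MYC was at 72.1 to 94.1 TPM in CHLA 02 and CHLA 06 and at 0.612 to 1.44 TPM in CHLA 04 and CHLA 05. Of the markers of other cells, the 3 immune genes summed to 0.344 to 22.7 TPM with AIF1 at 0 in every library, the 3 endothelial genes to 0.0132 to 3.70 TPM, and the 3 fibroblast genes to 397 TPM in CHLA 02, 13 and 19.4 TPM in CHLA 04, 42.0 TPM in CHLA 05 and 463 and 605 TPM in CHLA 06. The immune sum is mostly CD68 in CHLA 02 (6.36 TPM) and CHLA 06 (6.34 and 22.6 TPM). CD68 had 0.897 and 0.236 TPM in CHLA 04 and 0.344 TPM in CHLA 05. The fibroblast sum is mostly COL1A1 in CHLA 02 and CHLA 06 (387 TPM and a line value of 530 TPM), whereas PDGFRB was highest in CHLA 05 (23.4 TPM) and lowest in CHLA 06 (4.15 TPM), and COL1A2 had 7.12 TPM in CHLA 05 and 0 and 0.0259 TPM in CHLA 06. Whether these contents play a part in the differences between lines was not tested, and in RNA of whole cultures fewer cells that express a gene and less RNA per cell cannot be told apart.

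**Figure D1:**
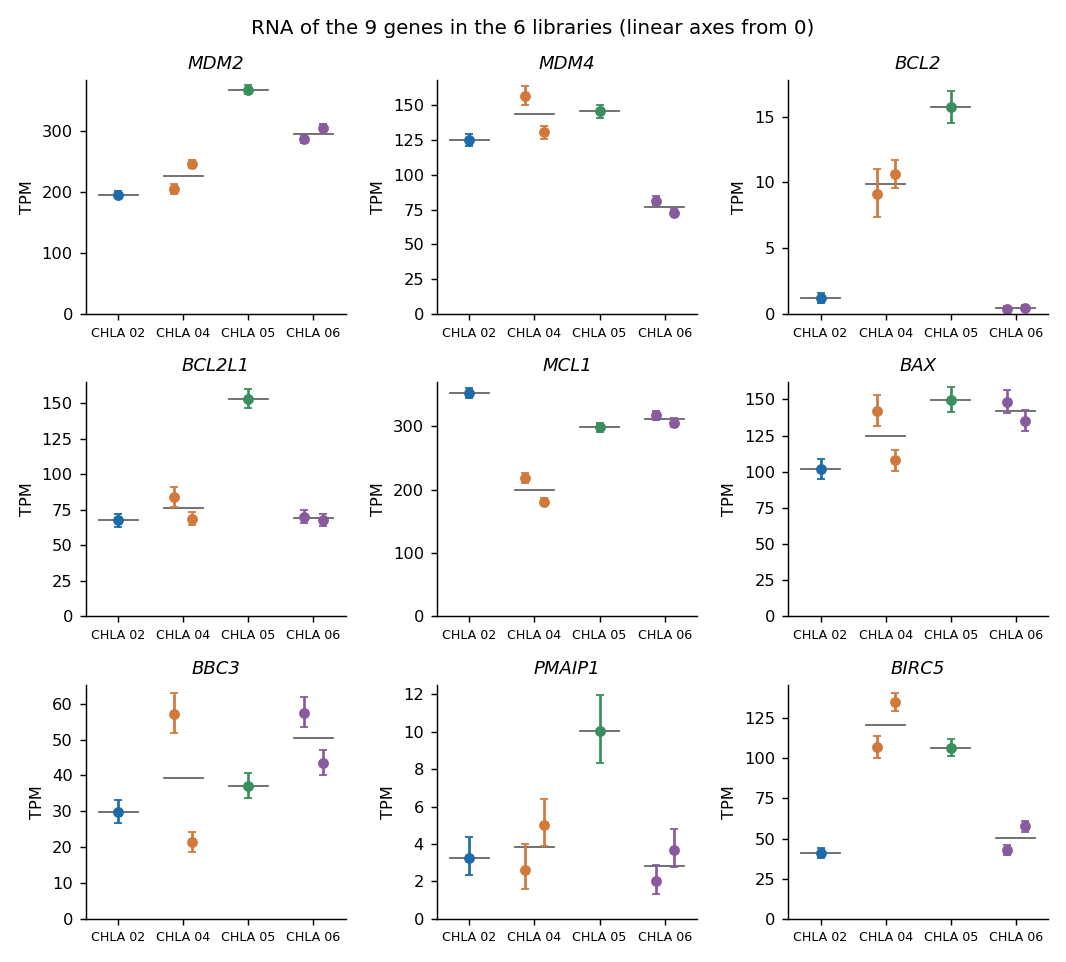
TPM (linear axes from 0) of the 9 genes by cell line. Each point is a library with the 95% Poisson interval of its summed reads, scaled to TPM. The points of CHLA 04 and CHLA 06 are technical replicates 1 (left) and 2 (right), and grey bars are line values. BCL2 spans 0.355 to 15.7 TPM over the libraries, whereas BAX spans 102 to 150 TPM.

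Both regulators of p53 were expressed in every line, with MDM2 above MDM4 in all 6 libraries. MDM2 (ENSG00000135679, GRCh38 chr12:68808172-68850686, plus strand) had 195 TPM in CHLA 02, 205 and 246 TPM in CHLA 04, 368 TPM in CHLA 05, and 286 and 305 TPM in CHLA 06. CHLA 05 was the highest line and CHLA 06 the next, and the intervals of CHLA 04 and CHLA 02 overlapped. MDM4 (ENSG00000198625, chr1:204516379-204558120, plus strand) had 125 TPM in CHLA 02, 157 and 131 TPM in CHLA 04, 146 TPM in CHLA 05, and 81.5 and 72.9 TPM in CHLA 06. On this sum over transcripts CHLA 06 stood below the other lines. The wide interval of CHLA 04 overlapped those of CHLA 02 and CHLA 05, which were apart from each other. MDM2 thus exceeded MDM4 within a library 1.56-fold for CHLA 02, 1.30-fold and 1.88-fold for CHLA 04, 2.52-fold for CHLA 05, and 3.51-fold and 4.19-fold for CHLA 06. CHLA 06, with the lowest summed MDM4, had the highest ratio in both of its libraries. The order differed between MDM4 transcripts. That of 490 residues had 20.9 TPM in CHLA 02, 3.03 and 3.06 TPM in CHLA 04, 14.8 TPM in CHLA 05, and 7.95 and 9.95 TPM in CHLA 06. That of 440 residues was lowest in CHLA 06, at 10.4 and 9.21 TPM. Transcripts with no defined coding sequence or not found in GENCODE 44 held 43.4% to 52.6% of MDM4 TPM.

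MDM2 has a pair of promoters, of which the upstream one is active without p53 and the downstream one is the p53-responsive one. Transcripts that begin at the upstream first exon (chr12:68808176-68808491, 8 transcripts) summed to 93.8 TPM in CHLA 02, 84.9 and 134 TPM in CHLA 04, 187 TPM in CHLA 05, and 150 and 160 TPM in CHLA 06. Those that begin at the downstream first exon (chr12:68809017-68809086, 6 transcripts) summed to 58.1 TPM in CHLA 02, 38.3 and 39.0 TPM in CHLA 04, 105 TPM in CHLA 05, and 72.6 and 78.8 TPM in CHLA 06. CHLA 04 had the lowest sum for the downstream first exon. This sum was 18.7% and 15.8% of its MDM2 TPM, against 29.7% for CHLA 02, 28.5% for CHLA 05, and 25.3% and 25.8% for CHLA 06. The downstream sums rest on 145 to 578 reads, which the authors' software divided between transcripts that share most of their exons. Most upstream reads lie on 1 transcript of 12633 bases, with 4206 of the 4664 reads in CHLA 02. The most abundant downstream transcripts are annotated with 754, 842 and 845 bases. Reads of longer RNA from the downstream start may thus have been assigned to upstream transcripts. The sums and shares therefore do not measure the use of each promoter. The remaining 22 transcripts with other starts held 39.8% and 29.7% of MDM2 TPM in CHLA 04 against 20.8% to 22.3% elsewhere. Of both first exons together, the downstream one held 31.1% and 22.5% for CHLA 04, near to or below the 32.6% and 33.0% for CHLA 06, with 38.2% for CHLA 02 and 36.0% for CHLA 05. Pairs of p53 core motifs spaced by 6 bases were searched on both strands, since this start is the one known to respond to p53. With at most 1 of the 8 core bases differing, 3 pairs lay before the downstream first exon, and they are shown from the GRCh38 sequence, plus strand, with the cores in capitals.
chr12:68808923-68808942: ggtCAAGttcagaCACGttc
chr12:68808961-68808980: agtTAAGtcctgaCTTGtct
chr12:68808988-68809007: gggCTATttaaacCATGcat
Such a pair was found in 53.9% of 35116 RefSeq promoters of 300 bases (GRCh38.p14), so the match by itself does not set MDM2 apart, and no binding was measured here. A pair without any differing core base was found in 4.79% of these promoters and, among the 9 genes, in that of MDM4 alone.
MDM4 chr1:204516186-204516205: tcaCAAGaccctgCAAGtcc

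Among the protective BCL2 family members, BCL2 differed most between lines, BCL2L1 was higher in CHLA 05, and MCL1 was abundant throughout. BCL2 (ENSG00000171791, chr18:63123346-63320128, minus strand) had 1.18 TPM in CHLA 02 from 41 reads, 9.09 and 10.6 TPM in CHLA 04, 15.7 TPM in CHLA 05, and 0.355 and 0.465 TPM in CHLA 06 from 12 and 27 reads. No intervals of neighboring lines overlapped, and the order was CHLA 05, CHLA 04, CHLA 02, CHLA 06. The highest line had 38.3 times the TPM of the lowest. The CHLA 04 libraries differed in make-up. In the first, 71.4% of BCL2 TPM rested on 25 reads of a 911-base transcript. The 7461-base transcript had 2.16 TPM (68 reads) there and 6.76 TPM (348 reads) in the second library. It kept the order, at 12.4 TPM in CHLA 05, 0.641 TPM in CHLA 02, and 0.173 and 0.392 TPM in CHLA 06. BCL2L1 (ENSG00000171552, chr20:31664452-31723989, minus strand), which encodes BCL-XL and the shorter BCL-XS, had 67.4 TPM in CHLA 02, 83.7 and 68.5 TPM in CHLA 04, 153 TPM in CHLA 05, and 69.9 and 67.9 TPM in CHLA 06. The other lines overlapped in their intervals, and CHLA 05 lay above them. MCL1 (ENSG00000143384, chr1:150574551-150579738, minus strand) had 352 TPM in CHLA 02, 218 and 181 TPM in CHLA 04, 298 TPM in CHLA 05, and 317 and 306 TPM in CHLA 06. CHLA 02 was the highest line and CHLA 04 the lowest, at 200 ± 26.4 TPM (SD, n = 2 technical replicates).

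Because TPM is scaled per length, the levels of the protective members could be set side by side within a library. Of the summed TPM of BCL2, BCL2L1 and MCL1, the share of MCL1 was 83.7% for CHLA 02, 70.2% and 69.6% for CHLA 04, 63.9% for CHLA 05, and 81.9% and 81.7% for CHLA 06. The share of BCL2L1 was 16% for CHLA 02, 26.9% and 26.3% for CHLA 04, 32.7% for CHLA 05, and 18.0% and 18.1% for CHLA 06. BCL2 reached at most 4.08%, in the second library of CHLA 04, and was 0.0917% and 0.124% in CHLA 06. In every library MCL1 was therefore the most abundant of the 3 and BCL2 the least, and the technical replicates of a line differed by less than the lines at either end.

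MCL1, BCL2L1 and BIRC5 each produce splice forms whose proteins differ in their known action, and the junctions that tell them apart are shown, 5′ to 3′ along the RNA with T for U, with the bases after the junction in capitals. Reads on these junctions were not counted. The levels and shares of forms given below come from the TPM that the authors' software assigned to whole transcripts. They therefore do not measure splicing directly. The full-length MCL1 protein of 350 residues is protective, whereas skipping of exon 2 gives a form of 271 residues that lacks the membrane anchor and promotes death.
MCL1 350 residues, exon 1 to exon 2 (GRCh38 chr1:150578843-150578857 to chr1:150578477-150578491, minus strand): agacggccttccaagGCATGCTTCGGAAAC
MCL1 350 residues, exon 2 to exon 3 (chr1:150578244-150578258 to chr1:150577477-150577491, minus strand): aaacaaagaggctggGATGGGTTTGTGGAG
MCL1 271 residues, exon 1 to exon 3 (chr1:150578843-150578857 to chr1:150577477-150577491, minus strand): agacggccttccaagGATGGGTTTGTGGAG
The BCL2L1 forms use the same downstream exon and differ in the donor site, which gives BCL-XL of 233 residues and BCL-XS of 170 residues.
BCL2L1 233 residues (chr20:31721655-31721669 to chr20:31666072-31666086, minus strand): gagaacggcggctggGATACTTTTGTGGAA
BCL2L1 170 residues (chr20:31721844-31721858 to chr20:31666072-31666086, minus strand): cagagctttgaacagGATACTTTTGTGGAA
The BIRC5 forms leave the same exon and enter different ones.
BIRC5 142 residues (chr17:78214775-78214789 to chr17:78216664-78216678, plus strand): agatgacgaccccatAGAGGAACATAAAAA
BIRC5 165 residues (chr17:78214775-78214789 to chr17:78215966-78215980, plus strand): agatgacgaccccatTGGGCCGGGCACGGT
BIRC5 137 residues (chr17:78214775-78214789 to chr17:78223465-78223479, plus strand): agatgacgaccccatGCAAAGGAAACCAAC

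Long MCL1 dominated in every library, and the short form was lowest in CHLA 02 and CHLA 05. The 350-residue transcript had 271 TPM in CHLA 02, 150 and 144 TPM in CHLA 04, 255 TPM in CHLA 05, and 245 and 233 TPM in CHLA 06. The 271-residue transcript had 1.62 TPM in CHLA 02 (12 reads), 15.8 and 6.14 TPM in CHLA 04 (74 and 47 reads), 1.38 TPM in CHLA 05 (10 reads), and 10.8 and 11.1 TPM in CHLA 06 (93 and 105 reads). Its share of both forms was 0.593% for CHLA 02, 9.50% and 4.09% for CHLA 04, 0.538% for CHLA 05, and 4.22% and 4.54% for CHLA 06. All libraries of CHLA 04 and CHLA 06 thus lay above CHLA 02 and CHLA 05, and the technical replicates of CHLA 04 did not overlap in their intervals of 12.4 to 19.8 and 4.51 to 8.16 TPM. A further MCL1 transcript with a retained intron held 13.5% to 23.5% of the TPM of the gene. The 271-residue transcript is annotated with 1110 bases and the 350-residue one with 3932. Reads of longer RNA without exon 2 may thus have been assigned to the long form.

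The higher BCL2L1 RNA of CHLA 05 lay mainly in the long form. Transcripts for BCL-XL had 25.1 TPM in CHLA 02, 24.3 and 22.0 TPM in CHLA 04, 80.5 TPM in CHLA 05, and 17.4 and 17.9 TPM in CHLA 06. The transcript for BCL-XS had 11.2 TPM in CHLA 02, 13 and 14.2 TPM in CHLA 04, 16.5 TPM in CHLA 05, and 18.2 and 15.2 TPM in CHLA 06. The share of BCL-XS in both forms was thereby 30.8% for CHLA 02, 34.9% and 39.2% for CHLA 04, 17% for CHLA 05, and 51.2% and 45.9% for CHLA 06, with CHLA 05 at the low end and CHLA 06 at the high end. The 6 other BCL2L1 transcripts, whose reading frame could not be matched or differed, are not part of these shares. Of all BCL2L1 TPM, BCL-XL held from 24.8% (CHLA 06) to 52.7% (CHLA 05) and BCL-XS from 10.8% (CHLA 05) to 26.1% (CHLA 06). A large part of the gene, which varied by library, thus lay on the other transcripts.

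**Figure D2:**
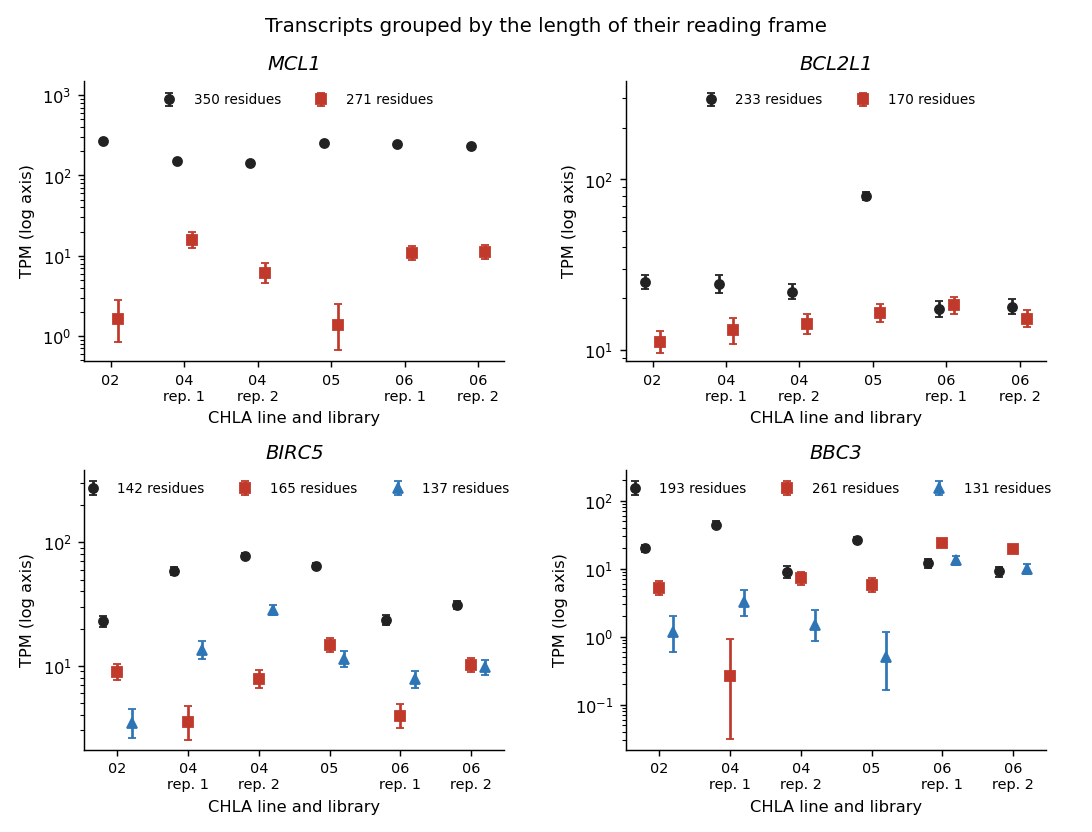
TPM (log axes) of transcripts grouped by the length of the reading frame, by library, with 95% Poisson intervals of counting error. The 271-residue MCL1 form is at 1.62 and 1.38 TPM in CHLA 02 and CHLA 05, the 233-residue BCL2L1 form stands out at 80.5 TPM in CHLA 05, and the BBC3 form of 261 residues exceeds that of 193 residues in CHLA 06 alone, with replicates of CHLA 04 that lie apart.

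The pore-forming BAX had the narrowest range of the 9 genes, and the BH3-only genes were less abundant. BAX (ENSG00000087088, chr19:48954815-48961798, plus strand) had 102 TPM in CHLA 02, 142 and 108 TPM in CHLA 04, 150 TPM in CHLA 05, and 148 and 135 TPM in CHLA 06. The intervals of neighboring lines overlapped, and CHLA 02, the lowest line, was apart from CHLA 05 and CHLA 06. Transcripts with a retained intron held 40.6% to 47.4% of BAX TPM, with no library standing apart. BBC3 (ENSG00000105327, chr19:47220824-47232766, minus strand) had 29.9 TPM in CHLA 02, 57.2 and 21.4 TPM in CHLA 04, 37.1 TPM in CHLA 05, and 57.5 and 43.5 TPM in CHLA 06. Of the technical replicates of CHLA 04, the first was level with the highest library and the second was the lowest of all, so their mean of 39.3 ± 25.4 TPM (SD, n = 2) gives no place in the order. PMAIP1 (ENSG00000141682, chr18:59899948-59904306, plus strand) had 3.23 TPM in CHLA 02, 2.62 and 5.02 TPM in CHLA 04, 10.02 TPM in CHLA 05, and 2.00 and 3.70 TPM in CHLA 06. CHLA 05 lay above the other lines, whose intervals overlapped.

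The replicates of CHLA 04 differed in the make-up of BBC3 as well. The PUMA alpha transcript of 193 residues had 20.0 TPM in CHLA 02, 44.6 and 8.99 TPM in CHLA 04, 26.4 TPM in CHLA 05, and 12.1 and 9.11 TPM in CHLA 06. The transcript for 261 residues had 5.24 TPM in CHLA 02, 0.259 and 7.22 TPM in CHLA 04 (2 and 91 reads), 5.79 TPM in CHLA 05, and 24.3 and 19.2 TPM in CHLA 06. CHLA 06 was the line in which the longer frame exceeded PUMA alpha in both libraries. The 131-residue transcript was also highest there, with 13.4 and 9.89 TPM against at most 3.23 TPM elsewhere. The division of reads between these BBC3 transcripts is also that of the authors' software.

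BIRC5 (ENSG00000089685, chr17:78214186-78225636, plus strand) was higher in CHLA 04 and CHLA 05 than in CHLA 02 and CHLA 06. It had 40.9 TPM in CHLA 02, 107 and 135 TPM in CHLA 04, 107 TPM in CHLA 05, and 42.6 and 57.5 TPM in CHLA 06. The upper and the lower pair of lines were apart, and within each pair the intervals overlapped. The 142-residue form, which is the classical survivin, was the most abundant of the 3 forms in every library, at 22.9 TPM in CHLA 02, 58.5 and 77.2 TPM in CHLA 04, 64.5 TPM in CHLA 05, and 23.4 and 31.3 TPM in CHLA 06. The share of the 165-residue form among the 3 was 25.4% for CHLA 02, 4.62% and 6.93% for CHLA 04, 16.3% for CHLA 05, and 11.3% and 19.7% for CHLA 06. That of the 137-residue form was 9.72% for CHLA 02, 17.9% and 25% for CHLA 04, 12.5% for CHLA 05, and 22.1% and 19.1% for CHLA 06. CHLA 04 accordingly had the lowest share of the 165-residue form, and CHLA 02 the lowest share of the 137-residue form.

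For a comparison with the rest of the transcriptome, line values were taken as log2(TPM + 2), a scale that understates differences of low genes, and a difference of at least 1 was called. Genes with a mean of at least 1 TPM over the lines numbered 14827 and included all 9. The range over the 4 lines reached 1 for BCL2 (2.88), BIRC5 (1.52), PMAIP1 (1.31) and BCL2L1 (1.16), that is for 4 of 9, against 45.2% of all genes tested. It was 0.90 for MDM2, 0.90 for MDM4, 0.81 for MCL1, 0.72 for BBC3 and 0.55 for BAX. The median range of the 9 genes was 0.90 and that of all genes 0.91, so as a group these genes varied about as much as the genes tested as a whole.

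**Figure D3:**
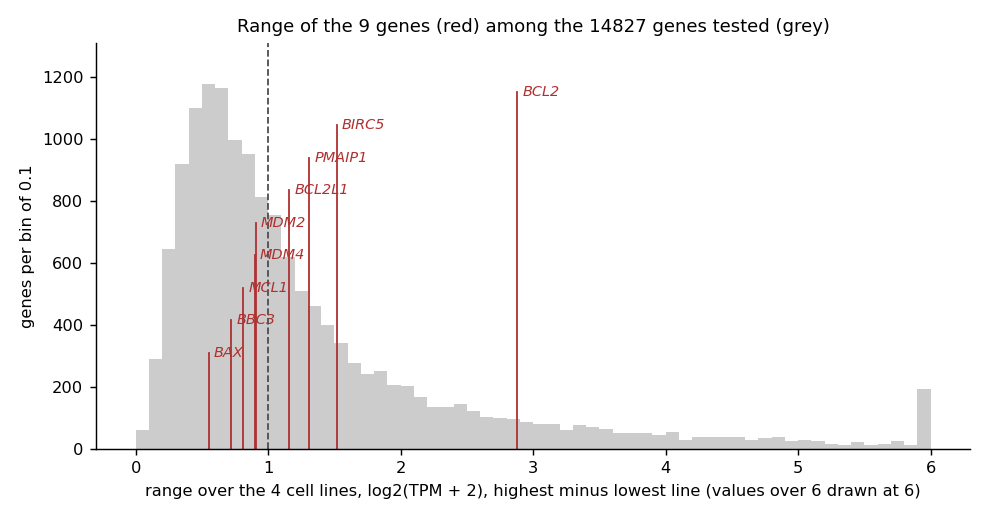
Histogram of the range over the 4 lines in log2(TPM + 2) for the 14827 genes tested (grey), with the 9 genes as red lines of arbitrary height and the call limit of 1 dashed. BCL2 lies at the 90.2th percentile and BAX at the 24.4th, with the others between them.

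By pairs of lines, CHLA 04 against CHLA 02 gave 2 called members, BCL2 and BIRC5, both higher in CHLA 04, where 18.5% of all genes were called and 9.05% were higher in CHLA 04. CHLA 05 against CHLA 02 gave 4, namely BCL2, BCL2L1, PMAIP1 and BIRC5, all higher in CHLA 05, with 21.1% of genes called and 11.2% higher in CHLA 05. CHLA 06 against CHLA 02 gave 0 of 9, with 10.2% called. CHLA 05 against CHLA 04 gave 1, PMAIP1, higher in CHLA 05, with 18% called, 10% higher and 7.94% lower in CHLA 05. CHLA 06 against CHLA 04 gave 2, BCL2 and BIRC5, both lower in CHLA 06, with 32.2% called, 13.3% higher and 18.8% lower in CHLA 06. CHLA 06 against CHLA 05 gave 4, the same genes as CHLA 05 against CHLA 02 and all lower in CHLA 06, with 27.6% called and 17% lower in CHLA 06. These comparisons share libraries. CHLA 05 was the highest line for 6 of the 9 genes, among them both p53 regulators, and for 29.5% of all genes. For MDM4 its interval overlapped that of CHLA 04, which was highest without its second library or with the maximum of replicates, and for BAX CHLA 06 was highest under both other scalings. BCL2L1 in CHLA 05 and CHLA 04 differed by 0.99, just under the limit. Other scalings moved values near the limit across it: for CHLA 06 against CHLA 05, BIRC5 was at -0.90 and BCL2L1 at -0.96 under median-ratio scaling, and PMAIP1 at -0.99 and BIRC5 at -0.92 under quantile normalization. Quantile normalization also put MCL1 at -1.10 for CHLA 04 against CHLA 02, with 5 members then called by range. For CHLA 05 against CHLA 04, quantile normalization put PMAIP1 at 0.89 and BCL2L1 at 1.05, and without the first library of CHLA 04 they were at 0.78 and 1.14.

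Between technical replicates the same limit was passed by 4.26% of genes in CHLA 04 and 1.03% in CHLA 06. Of the 9 genes, BBC3 was called in CHLA 04, lower by 1.34 in the second library, and 0 were called in CHLA 06. BIRC5 was higher in the second library of both lines, by 0.33 in CHLA 04 and 0.42 in CHLA 06.

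Against a list of 26 other p53 target genes, CHLA 04 stood low, more so against CHLA 05 and CHLA 06 than against CHLA 02. CHLA 04 was the lowest of the 4 lines for 15 of the 26, against 25.7% of all genes, while CHLA 05 and CHLA 06 were the highest line for 11 each, against 29.5% and 23.6% of all genes. CHLA 02 was the lowest for 8, and CHLA 04 the highest for 4. A range of at least 1 was reached by 17 of 26, against 45.2% of all genes, with a median of 1.24 against 0.91 for all genes. CHLA 05 against CHLA 04 gave 11 genes higher and 1 lower, where 10% of all genes were higher and 7.94% lower (median difference 0.70, all genes -0.01). CHLA 06 against CHLA 04 gave 11 higher and 0 lower, where 13.3% of all genes were higher and 18.8% lower (median 0.84, all genes -0.20). CHLA 04 against CHLA 02 gave 0 higher and 4 lower (9.05% of all genes higher, 18.5% called, median -0.13, all genes 0.14). CHLA 05 against CHLA 02 gave 6 higher and 1 lower (11.2% of all genes higher, 21.1% called, median 0.49, all genes 0.09). For CHLA 06 against CHLA 02 the counts were 4 higher and 0 lower (10.2% of all genes called, median 0.61, all genes -0.04). CDKN1A, the cell cycle inhibitor p21 and a classical p53 target, had 126 TPM in CHLA 02, 101 and 105 TPM in CHLA 04, 258 TPM in CHLA 05, and 178 and 209 TPM in CHLA 06. The stress-response gene SESN1 had 25.5 TPM in CHLA 02, 10.5 and 16.8 TPM in CHLA 04, 97.7 TPM in CHLA 05, and 41.1 and 46.4 TPM in CHLA 06. For both genes the libraries of CHLA 04 lay below all others. EDA2R, a receptor of the TNF receptor family, had 17.4 TPM in CHLA 02, 1.8 and 1.25 TPM in CHLA 04, 41.6 TPM in CHLA 05, and 36.6 and 38.5 TPM in CHLA 06. SPATA18, which acts in mitochondrial quality control, was listed at 0 and at 0.279 TPM in CHLA 04 and had 5.89 to 16.6 TPM in the other lines. BTG2, an antiproliferative gene, differed in pattern and stood out in CHLA 05 with 362 TPM against 70.9 to 96.2 TPM in the other libraries. Of the p53 targets among the 9 genes, MDM2 and BAX had their highest line values in CHLA 05 and CHLA 06, and PMAIP1 was separated from the other lines in CHLA 05 alone. MDM2 and BAX were lowest in CHLA 02 rather than CHLA 04, with overlapping intervals of these lines for both genes.

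**Figure D4:**
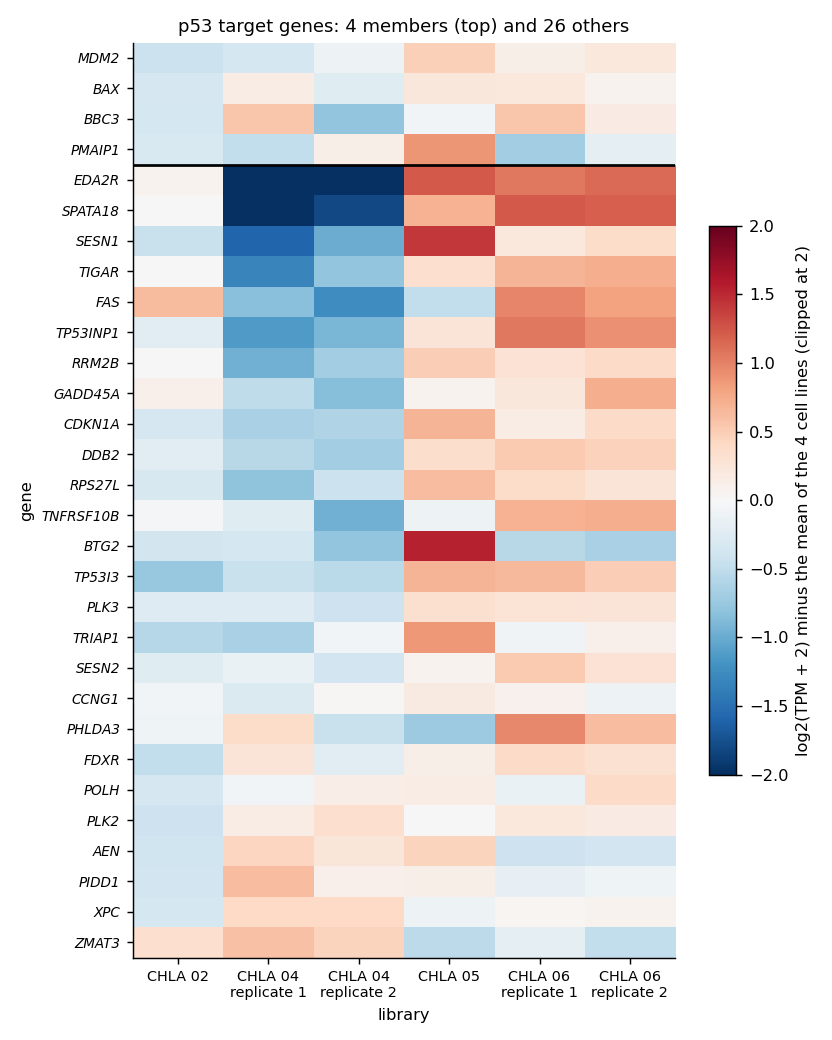
Color gives log2(TPM + 2) minus the mean of the 4 line values (clipped at 2) for 4 of the 9 genes that p53 induces (above the line) and for the 26 other p53 target genes, by library. Most of the upper rows of the list are blue in both libraries of CHLA 04 and red in CHLA 05 or CHLA 06, and the BBC3 row changes color between the replicates of CHLA 04.

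Of the genes upstream of p53, 19 of 20 listed were tested and 9 had a range of at least 1, a share near the 45.2% of all genes. CDKN2A, whose ARF product inhibits MDM2, had 17 TPM in CHLA 02, 53.1 and 40.3 TPM in CHLA 04, 35.2 TPM in CHLA 05, and 8.27 and 11.6 TPM in CHLA 06. PPM1D, a phosphatase that reverses p53 activation, had 69.9 TPM in CHLA 02, 115 and 102 TPM in CHLA 04, 88.1 TPM in CHLA 05, and 36.0 and 36.6 TPM in CHLA 06. Both were highest in CHLA 04 and lowest in CHLA 06. The checkpoint kinase gene CHEK1 went the same way, with line values of 188 TPM in CHLA 04 and 71.3 TPM in CHLA 06, and the p53 kinase gene HIPK2 was lowest in CHLA 06 at 12.5 TPM and highest in CHLA 05 at 40.3 TPM. NPM1, which binds ARF in the nucleolus, ran the other way, with 1271 TPM in CHLA 02, 606 and 969 TPM in CHLA 04, 817 TPM in CHLA 05, and 1841 and 1741 TPM in CHLA 06.

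Among 8 tested genes of the other BCL2 family members, 4 had a range of at least 1, against 45.2% of all genes. BCL2L11, which encodes the BH3-only protein BIM, had 33.9 TPM in CHLA 02, 32.2 and 37.6 TPM in CHLA 04, 99.9 TPM in CHLA 05, and 47.1 and 34.1 TPM in CHLA 06. CHLA 05 was thus highest for this death-promoting gene as it was for BCL2 and BCL2L1. BOK, a relative of BAX, had 16.7 TPM in CHLA 02, 1.69 and 1.58 TPM in CHLA 04, 18.7 TPM in CHLA 05, and 37.3 and 31.1 TPM in CHLA 06. The BH3-only gene BMF had 3.82 TPM in CHLA 02, 9.14 and 3.32 TPM in CHLA 04, 10.4 TPM in CHLA 05, and 1.77 and 1.19 TPM in CHLA 06. Its replicates in CHLA 04 lay on either side of CHLA 02.

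Of the other IAP genes and their antagonists, 3 of 7 tested had a range of at least 1, and of the genes of caspases and their partners 2 of 10, the first share near and the second below the 45.2% of all genes. The caspase list holds no death receptor gene. Without the second library of CHLA 04 the caspase count was 4. BIRC3, which encodes the IAP protein cIAP2, had 22.1 TPM in CHLA 02 and 21.5 and 16.5 TPM in CHLA 06, against 0.165 to 0.452 TPM in CHLA 04 and CHLA 05. CASP8, the initiator caspase of death receptors, had 32.7 TPM in CHLA 02, 0.274 and 1.36 TPM in CHLA 04, 2.39 TPM in CHLA 05, and 53.3 and 54.5 TPM in CHLA 06. For both genes the split was the opposite of that of BCL2 and BIRC5, with CHLA 02 and CHLA 06 high. BIRC2 (cIAP1) was lowest in CHLA 04, at a line value of 62.1 TPM, and CASP2 was highest there, with 91.3 and 109 TPM in the libraries.

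Of 12 mitotic genes listed and tested, 8 had a range of at least 1 (45.2% of all genes), with a median of 1.19. CHLA 04 against CHLA 02 gave 6 higher and 0 lower, with 9.05% of all genes higher, and CHLA 06 against CHLA 04 gave 0 higher and 6 lower, with 18.8% of all genes lower. These counts turned on single libraries. The 6 higher became 10 without the first library of CHLA 04 (median 1.34) and 2 without the second (median 0.59), and the 6 lower became 8 and 3, or 4 without the first library of CHLA 06. CDK1, named after its values were seen, had a range of 0.49, with line values of 151 TPM in CHLA 04 and 155 TPM in CHLA 06. AURKB and INCENP, partners of survivin in the chromosomal passenger complex, had line values of 133 and 105 TPM in CHLA 04 and 36.7 and 30.7 TPM in CHLA 06. FOXM1 and BUB1 were also highest in CHLA 04, at 172 TPM each, and TOP2A was highest in CHLA 05, at 465 TPM. In the second technical replicate all 12 genes were above the first, both in CHLA 04 (median difference 0.81, 45.5% of all genes above) and in CHLA 06 (median 0.73, 51.2% of all genes above). BIRC5 moved with them, and the median difference of the list between CHLA 04 and CHLA 02 was 1.03. The part of these genes in the BIRC5 differences was not tested.

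Genes with the most similar pattern over the 4 lines were found by the root mean square difference of centered log2(TPM + 2), among 10704 genes with a mean of at least 10 TPM. For BCL2 they were PLXNB1 (0.04), HIST2H3C (0.09) and CUEDC1 (0.13). For BCL2L1 they were DONSON, TRMT6 and PWWP2A, for PMAIP1 they were CEP83, PIGX and SMC5, and for BIRC5 they were NCAPH, SPAG5 and SAC3D1, with differences of 0.04 to 0.07. Only 4 points underlie each likeness. NCAPH, a condensin subunit, had line values of 78.2 TPM in CHLA 04 and 72.3 TPM in CHLA 05, against 27.5 TPM in CHLA 02 and 35.0 TPM in CHLA 06.

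Elements with long terminal repeats (LTR), remnants of endogenous retroviruses, were quantified by the authors in a separate mapping, and 23 of the 720177 elements lay within the spans of the 9 genes. They were 14 in BCL2, 6 in MDM4, 2 in BCL2L1 and 1 in MDM2, with none in the other 5 genes. At least 1 read in at least 1 library was found on 12 of the 23 (52.2%), against 16.3% of all elements, and 0 of the 23 had a read in every library. The 23 lie within genes with RNA in these lines, whereas all elements include those outside genes. These shares are therefore of unlike sets, and the difference was not tested. In BCL2 the elements with reads were the 8 that lie in the orientation of the gene, and the 6 in the opposite orientation had 0 reads in every library. All 14 lie outside the annotated exons of BCL2. Their summed reads were 1 for CHLA 02, 11 and 25 for CHLA 04, 48 for CHLA 05, and 1 and 1 for CHLA 06, high and low in the same lines as BCL2 RNA. An ERVL-B4-int element (chr18:63208920-63209365) carried 18 reads in CHLA 05, 2 and 5 in CHLA 04 and 0 in the other lines, and a THE1B element (chr18:63246356-63246673) carried 6 reads in CHLA 05, 2 reads in each CHLA 04 library, 1 read in CHLA 02 and 0 in CHLA 06. An LTR8 fragment of 39 bp within an exon of MDM4 (chr1:204556055-204556093) had 1 read in each of 3 libraries. The LTR values were scaled over LTR elements alone, with 355302 to 511408 reads per library, and were not compared with gene TPM.

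**Figure D5:**
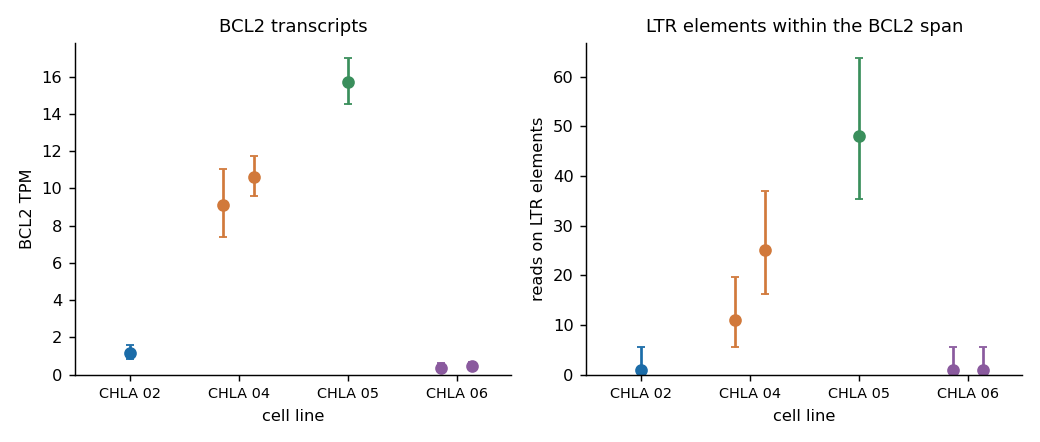
Left, BCL2 TPM, and right, reads on the 14 LTR elements within BCL2, by cell line (linear axes from 0). Each point is a library with the 95% Poisson interval of its summed reads, scaled to TPM on the left. Both are highest in CHLA 05, at 15.7 TPM and 48 reads, intermediate in CHLA 04, and low in CHLA 02 and CHLA 06.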

How the data were processed

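RNA of 4 AT/RT cell lines was measured in 6 libraries, and groups were taken from the line names in the labels. Per the labels and the methods, the authors called bases with CASAVA 1.8.2, trimmed with Trimmomatic, used the CLC Genomics Workbench to map to GRCh38 and Ensembl release 82, and deposited TPM per transcript and, from a separate mapping, TPM per LTR element. The version of the mapping software is not given in the sources used here, nor is the strand setting of the counting, so antisense or overlapping transcripts may share reads.

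The TPM of all transcripts with 1 gene identifier were added. TPM times length falls on multiples of a step worth 1 read, within 0.05, and reads were counted from these steps, which, like the calls, was tested on simulated data, where 48 of 50 genes with a 3-fold change and 0 of 14520 unchanged genes were called in CHLA 02 against CHLA 04. The simulated libraries held counting error only. They say nothing of further variation between libraries, and 4.26% of genes passed the limit between the technical replicates of CHLA 04. A pseudocount of 2 was used, a call needed a log2 difference of 1 between line values, and genes with a mean under 1 TPM were left out. With 1 biological sample per line no p-value was computed. Of 102 transcripts of the 9 genes, 97 were found in GENCODE 44, and reading frames were taken for 64 that had the same introns and a coding sequence inside the exons of the files. Genes outside the 9 were named by a rule: CDKN1A and CDKN2A, up to 5 genes of each list with the widest range (at least 1, and at least 10 TPM in a line), the 3 nearest patterns, and the 3 LTR elements with the highest mean TPM. SMARCB1, MYC, AIF1, CD68, COL1A1, COL1A2 and PDGFRB are from the marker lists. Some genes of the rule and the lists are not reported here. The members and lists were chosen with earlier results of these data known. Alternatives were another pseudocount, filter, scaling, fold limit or transcript choice, the maximum of technical replicates, and each technical replicate left out. Computations used Python 3.11.15, pandas 2.3.3, NumPy 2.4.6 and SciPy 1.17.1.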

Additional observations from a re-analysis of the deposited data

How the results depend on the processing

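No paired analysis was possible because no result comes from a test and the replicate numbers mark libraries that the labels call technical replicates. Of 181 values recomputed for the member counts, list counts, ratios and LTR elements, 154 stayed near the value given and 27 moved. All are counts or spans, which cannot reverse, so they do not inform on direction. With a pseudocount of 0.1, members called were 1 for CHLA 06 against CHLA 02 (BCL2) and 2 for CHLA 05 against CHLA 04. With a mean of at least 10 TPM required, BCL2 and PMAIP1 dropped out of the genes tested, and the calls were 1, 2, 0, 1 and 2 for CHLA 04 against CHLA 02, CHLA 05 against CHLA 02, CHLA 05 against CHLA 04, CHLA 06 against CHLA 04 and CHLA 06 against CHLA 05, with 2 members of range at least 1 and 2 other BCL2 family genes. Quantile normalization gave 5 members by range, with MCL1 added, 2 calls for CHLA 06 against CHLA 05 and spans over the lines of 4.95 for the log2 ratio of BCL2 to MCL1 (5.32 without it) and 1.52 for BCL2L1 to MCL1 (1.42 without it). Median-ratio scaling gave 2 calls each for CHLA 05 against CHLA 04 and CHLA 06 against CHLA 05. It moved the median of all genes for CHLA 06 against CHLA 04 from -0.20 to -0.03, and the p53 targets called there from 11 to 13 higher, with 0 lower. The maximum of technical replicates gave 0 calls for CHLA 05 against CHLA 04. The most abundant transcript gave 2 calls there, 4 genes of the caspase list, and 2.02 for the span of BCL2L1 to MCL1. A limit of 1.5-fold gave 3, 3 and 4 calls for CHLA 06 against CHLA 02, CHLA 05 against CHLA 04 and CHLA 06 against CHLA 04, 8 members by range, 14 upstream, 7 BCL2 family and 8 caspase genes. For the scalings, the maximum and the transcript choice the cause was not tested. Spans widened by 10 kb held 25 LTR elements with a read.

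Leaving out a technical replicate of CHLA 04 gave 5 members by range in each case, adding BBC3 without the first and MDM4 without the second, and leaving out each of the 4 technical replicates gave 2 to 4 caspase genes, the 4 without the second library of CHLA 04. The highest line of a member was the same in 66 of 72 checks over 8 settings and the lowest in 64. MDM2 in CHLA 02 and CHLA 04 changed order under quantile normalization (-0.03) and with the most abundant transcript (-0.21). Spread between cultures was not measured, and BCL2 in CHLA 06 rests on 12 and 27 reads.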
